A study of Mus musculus with 2 samples.

Results

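The glucocorticoid receptor and a small group of its target genes were followed across single mouse fibroblasts sorted by the brightness of a circadian reporter. The group was given as a list of gene symbols and held 7 of the 33757 features in the count table: the receptor gene Nr3c1 and the targets Tsc22d3, Fkbp5, Sgk1, Zfp36, Errfi1 and Cebpd. The cells were NIH3T3-Rev-VNP1-H2B-iRFP fibroblasts, an NIH3T3 embryonic fibroblast line carrying a Venus reporter of Nr1d1 (the clock repressor REV-ERB alpha) and a nuclear H2B-iRFP marker. They grew unsynchronized in medium with 10% fetal bovine serum and reached 95% confluency some 5 days after plating, when they were trypsinized and sorted one per well. Every group carried the same reporters and medium, and no hormone, inhibitor or receptor mutant was part of the design. The 2 samples were 2 plates of 384 wells, each with 96 cells in every one of 4 Venus gates, from the dimmest (bin 1) to the brightest (bin 4). On both plates bin 1 filled well columns 1 to 6, bin 2 columns 7 to 12, bin 3 columns 13 to 18 and bin 4 columns 19 to 24. Venus bin and well position therefore cannot be told apart. Plate 1 held the high and plate 2 the low H2B-iRFP sort, so plate and H2B-iRFP level cannot be told apart.

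The glucocorticoid receptor is a nuclear hormone receptor that waits in the cytoplasm in a complex with HSP90 and co-chaperones. On binding cortisol or corticosterone it moves into the nucleus and activates or represses genes, often through the glucocorticoid response element, a palindrome that a receptor dimer binds. Glucocorticoids and serum are both known to reset the clocks of cultured fibroblasts, in which Nr1d1 transcripts rise and fall once per cycle. Among the 6 targets, Tsc22d3 encodes GILZ, a leucine zipper protein that restrains inflammatory transcription factors, and Fkbp5 encodes the co-chaperone FKBP51, which lowers the hormone affinity of the receptor. Sgk1 encodes a kinase that acts on ion channels and transporters, and Zfp36 encodes tristetraprolin, which binds AU-rich elements and speeds mRNA decay. Errfi1 encodes MIG6, an inhibitor of the EGF receptor, and Cebpd encodes the transcription factor C/EBP delta. Several of these genes also answer to growth factors, serum and stress.

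Promoter sequences are shown for Sgk1, whose window holds the receptor's full response element, for Fkbp5, whose window holds the E-box bound by the clock activators CLOCK and BMAL1, and for Zfp36, the target with the clearest change over the Venus bins. RefSeq (build GRCm38.p6) windows were searched for 5 of the 7 genes, 13 windows in all, since Sgk1, Tsc22d3 and Errfi1 have several annotated starts. Cebpd had no window there, and Nr3c1 windows were left out of the search. The 250 bases upstream of a start were searched on both strands for 8 motifs. The glucocorticoid response element was taken as an arm, AGAACA, and its reverse complement with any 3 bases between, so that the full palindrome contains 2 arms. The single arm was searched as well. The clock motifs were the E-box CACGTG and the D-box, TTATGTAA. The cyclic AMP element core TGACGT was one more, and the TATA box, the CArG box of Fos and an NF-kappaB site completed the set. Capitals mark the response element and the E-box in Sgk1, the E-box in Fkbp5, and in Zfp36 a CArG box, the site of serum response factor, with any 6 A or T bases at its core. That wider CArG search was added after the sequences had been read.
Sgk1, chr10:21993640-21993889, plus strand: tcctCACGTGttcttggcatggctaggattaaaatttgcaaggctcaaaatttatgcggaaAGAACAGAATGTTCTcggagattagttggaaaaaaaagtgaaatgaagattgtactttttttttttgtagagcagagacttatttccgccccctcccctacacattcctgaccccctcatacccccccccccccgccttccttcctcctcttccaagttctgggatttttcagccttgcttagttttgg
Fkbp5, chr17:28486150-28486399, minus strand: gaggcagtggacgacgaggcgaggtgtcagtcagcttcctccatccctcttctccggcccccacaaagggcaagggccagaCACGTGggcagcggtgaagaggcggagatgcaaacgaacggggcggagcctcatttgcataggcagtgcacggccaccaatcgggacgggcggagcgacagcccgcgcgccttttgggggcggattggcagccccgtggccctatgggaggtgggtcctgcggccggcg
Zfp36, chr7:28379229-28379478, minus strand: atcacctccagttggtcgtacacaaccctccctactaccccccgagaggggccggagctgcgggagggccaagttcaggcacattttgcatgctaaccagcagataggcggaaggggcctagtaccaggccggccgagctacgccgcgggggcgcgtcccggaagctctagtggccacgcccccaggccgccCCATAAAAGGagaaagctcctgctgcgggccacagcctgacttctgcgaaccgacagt

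The Sgk1 element reads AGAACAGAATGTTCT and starts at position -189, counted from the annotated start with the last printed base as -1. Its E-box starts at -246. Among all 32851 RefSeq promoter windows, only 3 held the full palindrome (0.00913%), those of Sgk1, Acnat2 and Gm35041, and the latter pair was not among the genes tested here. The printed Sgk1 and Fkbp5 windows lie inside introns of longer annotated isoforms, and which start these cells used was not measured. An E-box was present in 2 of the 13 windows, against 6.02% of all upstream windows. A single AGAACA arm was present in 4 of the 13 windows, against 16.1% of all windows, and none held the D-box. The Zfp36 CArG match, CCATAAAAGG, starts at -58. A CArG box of this wider form was present in 1.47% of all upstream windows. Among the 11 immediate-early genes whose windows were searched, only Egr2 had one. No window of Egr1, Egr3, Fosl1, Ier2 or Myc was searched. A match describes letters in a window and does not show that a factor was bound.

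Sgk1 had the highest and Fkbp5 the lowest level per transcript length. On the scale of CPM (counts scaled to a common library total) per kilobase of exon, using exon lengths of the GENCODE vM21 annotation, Sgk1 stood at 42.8, with a range of 34.2 to 52.7 over the 8 sums of plate and bin. Zfp36 followed at 30.1 (20.9 to 35.0) and Tsc22d3 at 26.6 (24.1 to 31.6), so that these neighbours overlapped across sums. Cebpd stood at 15.7 CPM per kilobase (12.1 to 20.3), below every sum of Tsc22d3. The receptor Nr3c1 stood at 10.2 CPM per kilobase (8.71 to 11.8), Errfi1 at 5.99 (4.80 to 7.53) and Fkbp5 at 2.25 (1.93 to 2.83), and none of these ranges touched a neighbour's. Each gene was detected in most cells: Nr3c1, Tsc22d3 and Sgk1 had a count in 99.9% of cells, Zfp36 and Cebpd in 99.6%, Errfi1 in 88.7% and Fkbp5 in 84.5%.

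Depth was similar across the sums, and fibroblast markers far outweighed those of other cell types in each. After filtering, 762 of 768 cells remained, 383 on plate 1 and 379 on plate 2, with 151173 to 1618022 counts per cell and 76042157 to 86612194 per sum. The median mitochondrial share of the gates was 8.68 to 9.77% on plate 1 and 7.02 to 7.91% on plate 2. Fibroblast markers were abundant, led by Col1a1 at 8451 CPM, and their summed level over 10 genes ranged from 20260 to 26645 CPM. It was lowest in bin 4 on both plates. The 4 immune markers in the table summed to at most 0.846 CPM and the 3 endothelial markers to at most 0.796 CPM in any sum. The 3 epithelial markers summed to 26.0 to 44.2 CPM, mostly from Krt14, at 33.4 CPM over all cells, with Epcam at 0.0031 CPM.

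The first comparison asked whether the 7 transcripts follow the Nr1d1-Venus axis. Along it, 2 of the 7 fell, Zfp36 and Cebpd, and none passed the test in the upward direction. The count was 2 of 7 where 15.4% of the 18430 genes tested passed in either direction, 8.64% downward and 6.78% upward. The test was edgeR's quasi-likelihood test of a linear trend over the 4 bins, with the plate in the model and Benjamini-Hochberg adjustment over all genes tested. Trends are given as log2 change per bin, positive where a gene is higher toward bright Venus. Nothing in the labels says whether the plates came from separate cultures. The p-values therefore set each trend only against how far the bin pattern differed between these 2 samples, moderated over genes. That difference may be technical or go with the H2B-iRFP sort. Well column followed the bin on both plates and cannot be told apart from it in these trends. Sums over cells cannot by themselves tell fewer expressing cells from less RNA per cell. Over all bins together, Zfp36 and Cebpd each had a count in 99.6% of cells.

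**Figure D1:**
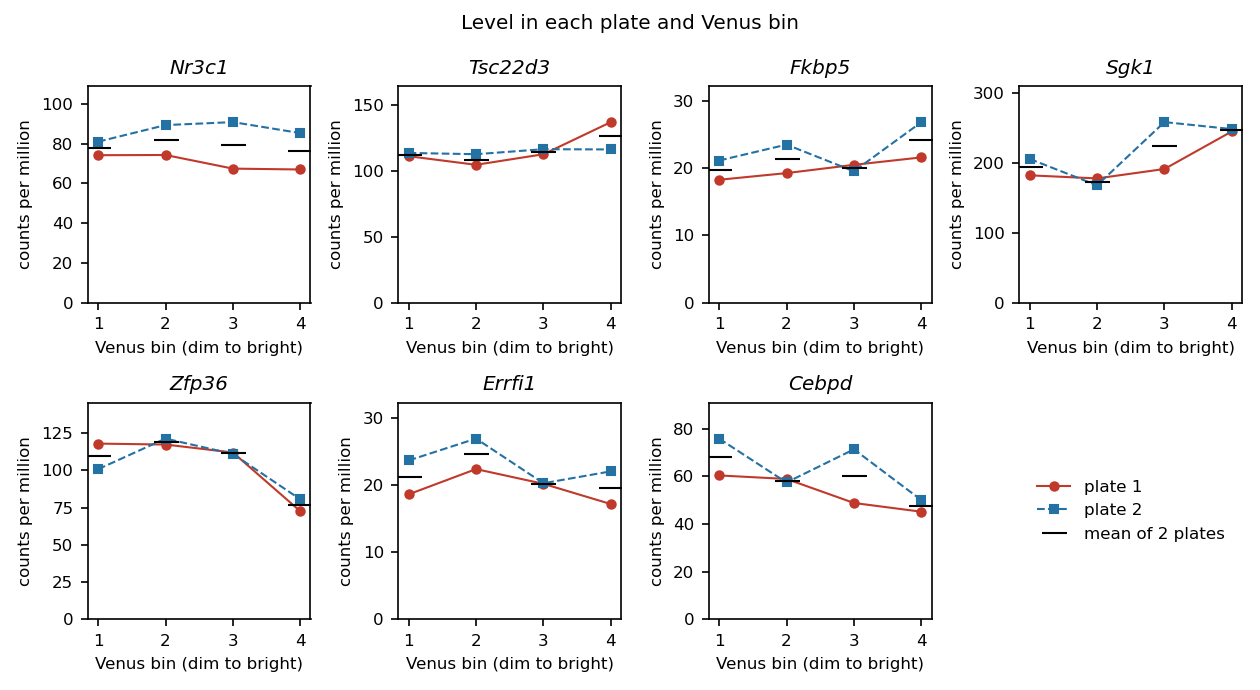
Each panel shows one gene, with CPM (counts scaled to a common library total) on the y axis from 0 and the Venus bin, dim to bright, on the x axis; red circles are plate 1, blue squares plate 2 and black bars the mean of the 2 plates. Zfp36 drops in bin 4 on both plates, to 72.5 and 80.5 CPM, and the 4 plate 2 values of Nr3c1 lie above the 4 plate 1 values.

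Zfp36 was the target with the clearest fall. Its sums on plate 1 were 118, 117, 112 and 72.5 CPM from bin 1 to bin 4. On plate 2 they were 101, 121, 111 and 80.5 CPM. The first 3 bins ranged from 101 to 121 CPM and the bright bin stood apart: both bin 4 sums lay below the other 6, a pattern held by 7.17% of the genes tested. Bin 1 had a mean of 109 ± 12 CPM (SD over n = 2 plates), and bin 4 one of 76.5 ± 5.7 CPM. The trend was -0.18 ± 0.03 log2 per bin (± SE, edgeR adjusted p = 0.00824). A test of any difference between bins gave an adjusted p of 0.0189 by edgeR, a threshold passed by 8.37% of genes. The fall rested on the bright bin, since without it the trend was 0.0096 log2 per bin (edgeR adjusted p = 0.937), and without bin 1 it was -0.345 (0.00564). The call was also lost with the bin as a number in the model (adjusted p = 0.105 by edgeR).

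Cell cycle genes are given beside Zfp36. Of 15 S phase genes 8 rose, and of 16 G2/M genes 5 rose, with none of either list falling (background 6.78% up and 8.64% down). The summed level of the G2/M genes on plate 1 was 292, 367, 401 and 649 CPM from bin 1 to bin 4, and on plate 2 it was 517, 723, 328 and 695 CPM. On plate 1 bin 4 was the highest for this list and the lowest for Zfp36, while on plate 2 both the list and Zfp36 were highest in bin 2. The S phase genes summed to 237, 272, 338 and 444 CPM on plate 1 and to 286, 362, 337 and 419 CPM on plate 2, highest in bin 4 on both plates. In the 380 cells below their plate's median for 31 S and G2/M genes, Zfp36 stood at 123, 137, 114 and 87.7 CPM on plate 1 and at 102, 141, 125 and 104 CPM on plate 2. In these cells bin 4 was still the lowest on plate 1 but not on plate 2, and the trend was -0.11 ± 0.04 log2 per bin (edgeR adjusted p = 0.122). The part of the cell cycle and of the fibroblast markers in the Zfp36 result was not tested. On plate 1 alone the Zfp36 trend was -0.24 (adjusted p = 0.149 by edgeR) and on plate 2 alone -0.12 (adjusted p = 0.641 by edgeR).

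Cebpd, which encodes a C/EBP factor induced in acute-phase responses and early adipogenesis, also fell. Its sums on plate 1 were 60.4, 59.0, 48.9 and 45.2 CPM, a step down at each bin. On plate 2 they were 75.9, 57.5, 71.4 and 50.1 CPM, lowest in bin 4 but uneven between. Bin 1 had a mean of 68.2 ± 11 CPM (SD over n = 2 plates), against 47.6 ± 3.4 CPM for bin 4. The trend was -0.17 ± 0.04 log2 per bin (edgeR adjusted p = 0.0311), while the test of any difference gave 0.0986 by edgeR. The call was lost without bin 1 (adjusted p = 0.189 by edgeR), without bin 4 (0.483), on plate 1 alone (0.0776), on plate 2 alone (0.506) and with no plate term in the model (0.0745), with the trend negative in each. In the reference annotation the exons of Cebpd overlap those of Spidr, a DNA repair gene on the opposite strand. Spidr had 28.6 CPM and a trend of -0.11 ± 0.03 log2 per bin (adjusted p = 0.0283 by edgeR), and with strand use not stated reads of the pair cannot be told apart.

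Sgk1 had positive values that did not pass. Its sums on plate 1 were 182, 178, 191 and 245 CPM. On plate 2 they were 206, 168, 258 and 248 CPM. Bin 2 was the lowest and bins 3 and 4 the highest on both plates, with bin 3 of plate 1 below bin 1 of plate 2. The trend was 0.12 ± 0.04 log2 per bin (edgeR adjusted p = 0.0544). It passed under 6 of 15 alternatives, among them DESeq2 (adjusted p = 0.000708) and thinned cells (0.0237 by edgeR), and was positive in all 15. Without bin 1 it was 0.23 (edgeR adjusted p = 0.0749).

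The receptor gene itself had a trend near 0. Nr3c1 sums on plate 1 were 74.1, 74.2, 67.4 and 66.9 CPM. On plate 2 they were 80.9, 89.3, 90.8 and 85.2 CPM. The trend was -0.03 ± 0.03 log2 per bin (edgeR adjusted p = 0.461), and the test of any difference gave 0.611 by edgeR. The sign was negative on plate 1 alone (-0.08) and positive on plate 2 alone (0.02).

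The 2 classical targets Tsc22d3 and Fkbp5 had small positive values. Tsc22d3 stood at 111, 105, 113 and 137 CPM on plate 1 and at 114, 113, 117 and 116 CPM on plate 2. Only bin 4 of plate 1 stood above the rest, and the trend was 0.04 ± 0.03 log2 per bin (edgeR adjusted p = 0.323). Fkbp5 stood at 18.3, 19.2, 20.5 and 21.6 CPM on plate 1 and at 21.1, 23.5, 19.5 and 26.8 CPM on plate 2. Its bins overlapped across plates, and the trend was 0.06 ± 0.03 log2 per bin (edgeR adjusted p = 0.269). In the cells low in S and G2/M genes the Fkbp5 trend turned negative, at -0.07 log2 per bin (adjusted p = 0.454 by edgeR). Errfi1 stood at 18.6, 22.4, 20.2 and 17.2 CPM on plate 1 and at 23.7, 27.0, 20.3 and 22.1 CPM on plate 2. Bin 2 was its highest on both plates, and the trend was -0.08 ± 0.03 log2 per bin (edgeR adjusted p = 0.162), or -0.19 (0.0923) without bin 1.

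The nearest relatives of the group were compared on the same axis. Of 9 relatives tested, 4 fell and none rose (background 8.64% down and 6.78% up), all 4 from the families of Zfp36 and Tsc22d3. The median over the 9 was -0.12 log2 per bin, where the median of all genes tested was 0.00051. Zfp36l1 fell by 0.20 and Zfp36l2 by 0.13 log2 per bin (adjusted p = 0.00191 and 0.00553 by edgeR), so that Zfp36 and both of these relatives passed downward. Tsc22d1, a TGF-beta-stimulated member of the TSC22 family, fell by 0.29 log2 per bin, with means of 499 ± 43 CPM (SD over n = 2 plates) for bin 1 and 288 ± 40 CPM for bin 4 (adjusted p = 0.00250 by edgeR). Tsc22d2 fell by 0.12 log2 per bin (adjusted p = 0.00994 by edgeR). The hormone-induced member Tsc22d3, above, did not pass. All 4 kept their sign under each of the 15 alternatives and passed under 11 to 14 of them. The mineralocorticoid receptor gene Nr3c2, at 7.65 CPM, had a trend of -0.17 ± 0.06 (adjusted p = 0.0809 by edgeR), Cebpb one of 0.0013 ± 0.03 (0.989), and Fkbp4, the co-chaperone that favours hormone binding, one of 0.04 ± 0.02 (0.122).

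**Figure D2:**
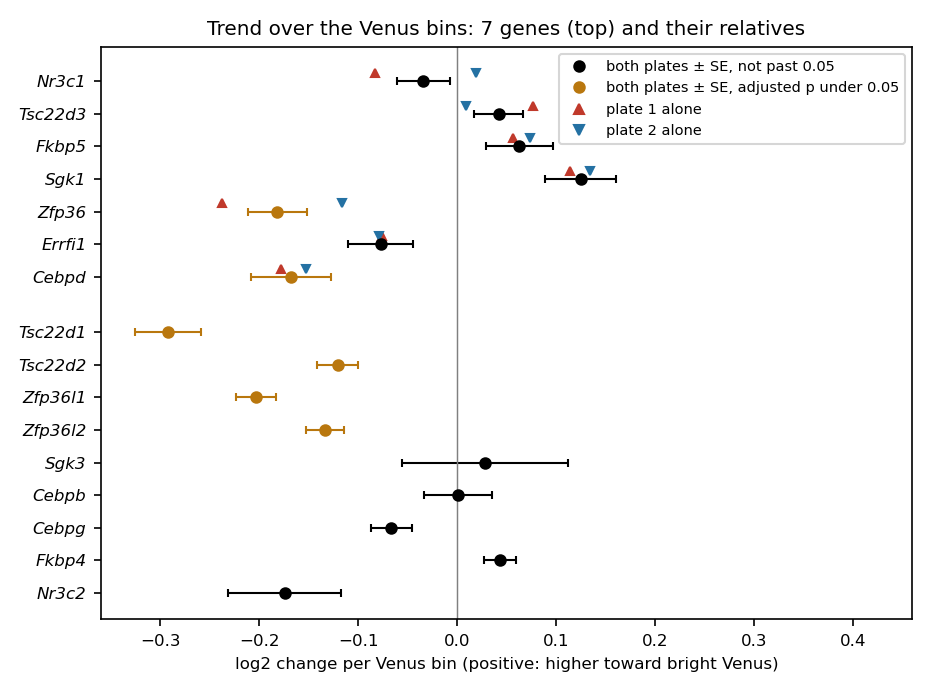
The x axis gives the log2 change per Venus bin, positive toward bright Venus; large points are the fit over both plates with its SE, orange where the adjusted p was under 0.05, and triangles are each plate alone. Zfp36 (-0.18) and Cebpd (-0.17) lie left of 0 with Tsc22d1, Tsc22d2, Zfp36l1 and Zfp36l2, and the triangles of Nr3c1 fall on either side of 0.

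Hormone supply and receptor machinery were described from a list of 20 genes, 18 of them tested. Chaperones of the receptor did not move as one: Hsp90aa1, the inducible HSP90, rose by 0.15 ± 0.01 log2 per bin (adjusted p = 0.00130 by edgeR), while Hsp90ab1, its constitutive partner at 4775 CPM, had a trend of 0.0052 ± 0.01 (0.855). The co-chaperones Ptges3 (p23) and Stip1 (HOP) rose by 0.05 and 0.07 log2 per bin (adjusted p = 0.0467 and 0.0469 by edgeR). Hspa8, the constitutive HSP70, fell by 0.09 log2 per bin (adjusted p = 0.0124 by edgeR). H6pd, which supplies NADPH to the enzyme that reactivates cortisone, fell by 0.09 log2 per bin (adjusted p = 0.0484 by edgeR). That enzyme, Hsd11b1, was near absent at 0.121 CPM with a count in 1.05% of cells, and the inactivating enzyme Hsd11b2 was at 0.0171 CPM. Counts in the list were 3 up and 2 down of 18 (background 6.78% and 8.64%), with a median of 0.0055 log2 per bin. The calls of H6pd, Ptges3 and Stip1 held under 4, 5 and 8 of the 15 alternatives. Without bin 4 the sign turned for H6pd (0.0049) and for Stip1 (-0.03).

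Other genes known to be induced by glucocorticoids did not share one direction. Of 30 listed, 24 were tested: 3 rose and 8 fell (background 6.78% up and 8.64% down), with a median of -0.03 log2 per bin. Per1, a clock gene with a receptor-bound enhancer, rose by 0.36 log2 per bin, with means of 17.9 ± 0.027 CPM (SD over n = 2 plates) for bin 1 and 37.6 ± 0.71 CPM for bin 4 (adjusted p = 0.00123 by edgeR). The metallothionein Mt2 and the repressor Bcl6 rose by 0.09 and 0.20 log2 per bin (adjusted p = 0.0437 and 0.0190 by edgeR). Mt1, the second metallothionein, had a trend of 0.06 ± 0.02 (adjusted p = 0.0626 by edgeR). Ddit4, an inhibitor of mTOR signalling, fell by 0.27 log2 per bin (adjusted p = 0.00709 by edgeR), and the PI3K inhibitor Pik3ip1 fell by 0.17 (0.00717). Klf9 fell by 0.09 and Nfkbia, the inhibitor of NF-kappaB, by 0.10 log2 per bin (adjusted p = 0.0239 and 0.0143 by edgeR). The remaining 4 that fell act in matrix, adhesion or cell shape: Timp3, Snai2, Lox and Tns1, by 0.19, 0.17, 0.15 and 0.07 log2 per bin (adjusted p from 0.00229 to 0.0476 by edgeR). Per1, Ddit4 and Timp3 passed under 12 of the 15 alternatives, but Bcl6 under 9, Nfkbia under 8, Klf9 and Mt2 under 7 and Tns1 under 6. The sign of Tns1 turned without bin 1 (0.03).

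Genes that glucocorticoids are known to repress were tested as 9 of 12 listed. The neutrophil chemokines Cxcl1 and Cxcl5 rose by 0.38 and 0.29 log2 per bin (adjusted p = 0.00379 and 0.00370 by edgeR), and the prostaglandin synthase Ptgs2 rose by 0.27 (0.0271). None fell, so that 3 of 9 passed upward (background 6.78%), and the median was 0.012 log2 per bin. Each of the 3 passed under 10 of the 15 alternatives, and Ptgs2 turned negative without bin 4 (-0.04). Cxcl1 stood at 12.8 CPM in bin 4 of plate 1 and 25.6 CPM in bin 4 of plate 2, each the highest of its plate, with all 4 plate 2 sums above those of plate 1 in the same bin. The monocyte chemokine genes Ccl7 and Ccl2 were higher in level, at 85.2 and 65.2 CPM, with trends of -0.07 ± 0.06 and -0.30 ± 0.20 (adjusted p = 0.522 and 0.380 by edgeR). Among 16 immediate-early genes tested, 2 rose (Fosl1 and Ier3) and 4 fell (Fos, Junb, Ier2 and Ccn1), with a median of -0.03 log2 per bin and a background of 6.78% up and 8.64% down.

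The second comparison set plate 1 (high H2B-iRFP) beside plate 2 (low H2B-iRFP), with 1 sample a side and no test. Nr3c1 was the member that differed most, at 70.7 CPM (exact Poisson 95% interval 69.8 to 71.6) on plate 1 and 86.6 CPM (85.6 to 87.7) on plate 2. Its ratio was 0.816 (exact binomial 95% interval 0.802 to 0.830). All 4 plate 2 sums of Nr3c1 lay above all 4 plate 1 sums, which held for 4.1% of genes. Errfi1, at a ratio of 0.850 (0.822 to 0.880), was higher on plate 2 in each bin as well, as were 19.9% of genes. Cebpd (0.835), Fkbp5 (0.878) and Sgk1 (0.896) were higher on plate 2 in 3 bins of 4. Tsc22d3 and Zfp36 were at 1.01 (0.996 to 1.02) and 1.02 (1.00 to 1.03). Intervals treat every read as independent and leave out the spread between cells. PCR copies were not told apart by molecular identifiers in any way stated here, so the intervals may be too narrow even for counting error. Over 9694 genes with at least 5 CPM the middle 95% of log2 ratios ran from -0.34 to 0.20, which contains the value of Nr3c1 (-0.29). The median was -0.063, so most of these genes were higher on plate 2. A ratio lower than that of Nr3c1 was held by 4.11% of them. For Cebpd, Errfi1, Fkbp5 and Sgk1 this share was 5.85, 7.90, 13.8 and 19.2%, and for Tsc22d3 and Zfp36 76.6 and 79.9%.

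Levels varied widely from cell to cell. For Sgk1 on plate 1 the lowest cell had 0 CPM, the median cell 141 and the highest 1696; on plate 2 the values were 1.10, 164 and 1781 CPM. The squared coefficient of variation was 0.96 on plate 1 and 0.81 on plate 2, where the median of the 200 genes nearest in mean was 0.11 on both plates. This placed Sgk1 at percentiles 99.5 and 97.5 among those genes. Cebpd was alike, with squared coefficients of 1.15 and 0.95 and percentile 98.5 on both plates. The squared coefficients of Fkbp5 (1.03 and 1.00) and Errfi1 (1.01 and 1.12) were above those of Sgk1 too, but their like genes stood at medians of 0.48 to 0.50. Zfp36 cells had medians of 88.0 and 83.8 CPM and highest values of 395 and 481 CPM, at percentiles 89.0 and 97.0. Nr3c1 was the most even of the group, with medians of 67.7 and 83.6 CPM, squared coefficients of 0.17 and 0.21, and percentiles 32.5 and 71.0. Fkbp5, Errfi1 and Tsc22d3 were at percentiles 86.0 to 97.0.

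**Figure D3:**
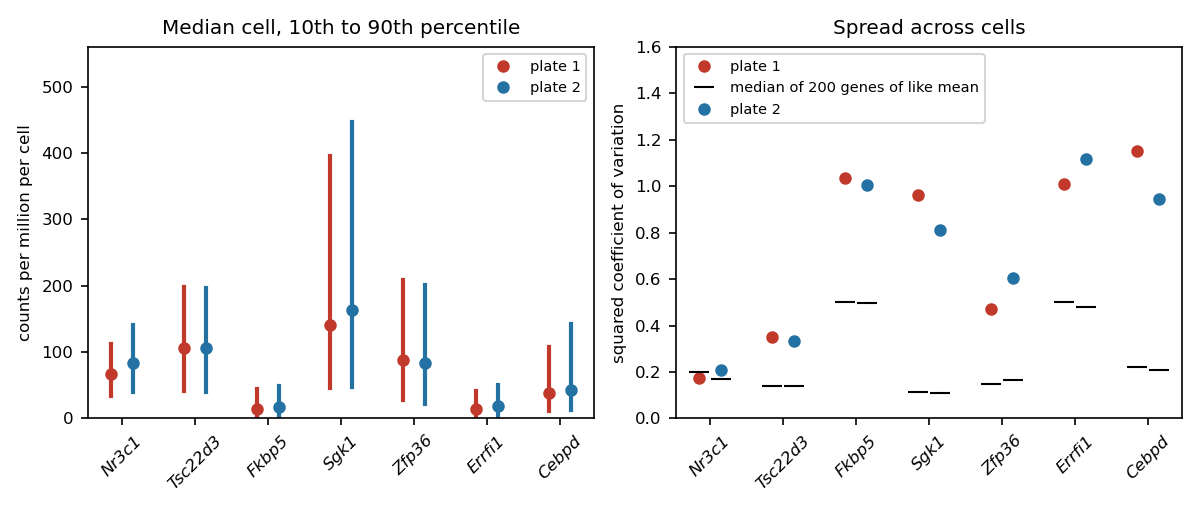
Left, the median cell (point) and the 10th to 90th percentile (line) of CPM (counts scaled to a common library total) for each gene on each plate; right, the squared coefficient of variation across cells beside the median of 200 genes of like mean (black bars). Nr3c1 sits at the level of like genes on both plates, while Sgk1, at 0.96 and 0.81, lies far above its bars at 0.11.

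Most pairs of members hardly varied together across cells. Spearman correlations were computed over the 383 and 379 cells of the plates, within Venus bins and averaged, as descriptions; the cells of a plate share its library, and each value is relative to the cell's total. The median of the 21 pairs was 0.015, and 17 lay within 0.1 of 0. Of the pairs, 8 were positive on both plates, 5 negative on both and 8 of mixed sign. The highest was that of the receptor with Cebpd (0.12 on plate 1 and 0.24 on plate 2). The lowest was that of Fkbp5 with Zfp36 (-0.12 and -0.14). Cebpd ranked 23 among the 9646 genes compared with Nr3c1, of which 95% lay between -0.12 and 0.12. Among those compared with Errfi1 it ranked 105, at 0.13, where 95% lay between -0.11 and 0.10. Every other pair lay within the 95% range of both its members. Nr3c1 had values of -0.05 with Tsc22d3, -0.08 with Fkbp5 and -0.03 with Sgk1.

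Zfp36 stood with the immediate-early genes, the first genes transcribed after serum or stress. Of all 9646 genes compared, the 3 nearest to it were Ier2 (0.58 on plate 1 and 0.64 on plate 2), Junb (0.56 and 0.65) and Fos (0.54 and 0.60). Over the 16 immediate-early genes its median correlation was 0.31, with 12 positive on both plates and 3 negative on both, where 95% of all genes lay between -0.20 and 0.19. Those 3 partners also fell over the Venus bins, by 0.13, 0.08 and 0.17 log2 per bin (adjusted p = 0.00555, 0.0390 and 0.0254 by edgeR), calls that held under 10, 6 and 8 of the 15 alternatives. Without bin 4 the Junb trend turned positive (0.04), and that of Ier2 was -0.0043. The mean of Ier2 was 121 ± 4.9 CPM (SD over n = 2 plates) for bin 1 and 94.2 ± 2.4 CPM for bin 4. No other member had a median above 0.07 with this list.

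Zfp36 and Fkbp5 took opposite signs with G2/M and S phase genes. Zfp36 was negative with each of the 16 G2/M genes on both plates, with a median of -0.25 and the lowest value for Bub1 (-0.29 and -0.38). Fkbp5 was positive with each of the 16 on both plates, with a median of 0.22 and the highest value for Tpx2 (0.30 and 0.28). The medians of the other members ran from -0.07 for Cebpd to 0.004 for Errfi1. Of the 15 S phase genes, Zfp36 was negative with 14 on both plates (median -0.15) and Fkbp5 positive with 14 on both (median 0.22), Ung being the exception for each. The 3 genes nearest to Fkbp5 were the splicing factor gene U2af1 (0.31), the prefoldin subunit gene Pfdn6 (0.30) and the snoRNP gene Nop58 (0.30).

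**Figure D4:**
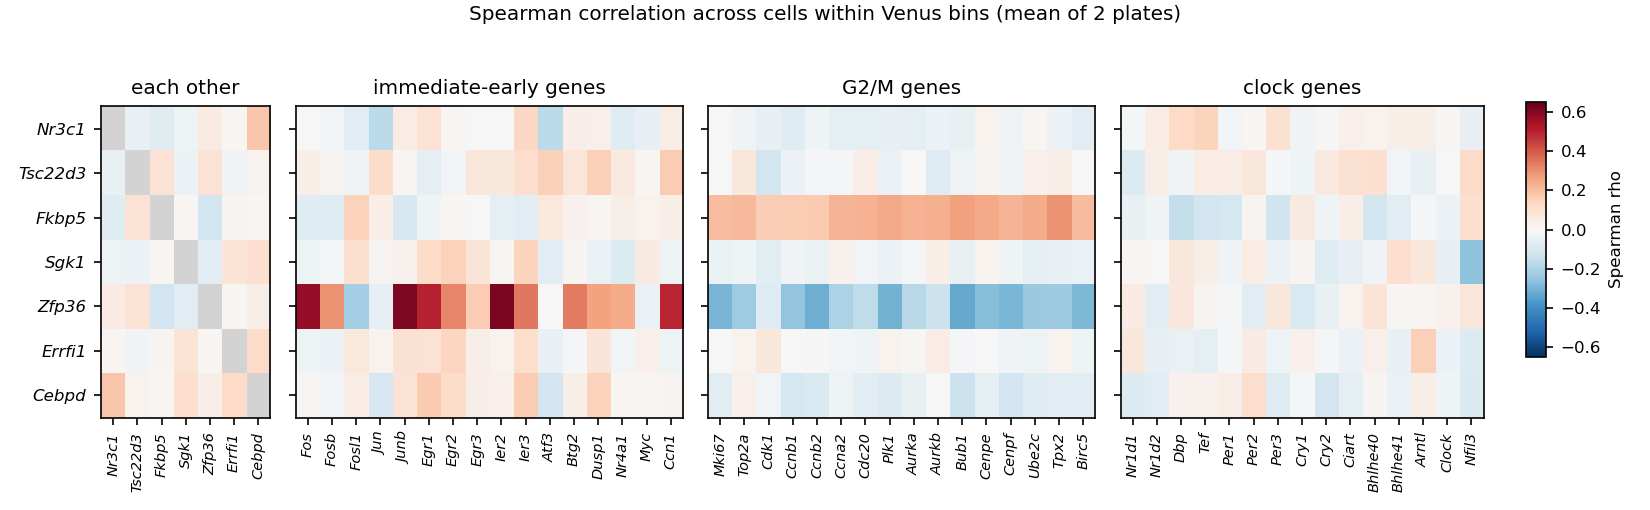
Rows are the 7 genes and columns are the group itself, immediate-early, G2/M and clock genes; colour is the Spearman correlation across cells within Venus bins, averaged over the 2 plates, from -0.65 (blue) to 0.65 (red). The Zfp36 row is red for Ier2 (0.61), Junb (0.60) and Fos (0.57) and blue for G2/M genes, and the Fkbp5 row is red for every G2/M gene shown.

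The other members had partners of their own. Tsc22d3 was nearest to the Kruppel-like factor gene Klf4 (0.45), Igfbp6 (0.43) and Slurp1 (0.40). Sgk1 was nearest to Ank (0.40), a pyrophosphate transporter gene, Gstm2 (0.36) and Tmsb4x (0.34). Nr3c1 was nearest to the growth hormone receptor gene Ghr (0.28), Colec12 (0.28) and Cyb5a (0.24). Errfi1 was nearest to Zfp36l2 (0.26), Ank (0.25) and the ERK phosphatase gene Dusp6 (0.21). Cebpd was nearest to 2 features without a symbol, ENSMUSG00000123342.1 (0.39) and ENSMUSG00000121093.2 (0.38), then to Ifitm3 (0.37). No gene was among the 3 nearest of more than 1 member except Ank.

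Clock genes had median correlations near 0 with each member within bins. These medians cannot show whether a member is related to the clock. The list mixes 12 genes that rose over the Venus bins with 2 that fell, and ranking within bins removes the variation between bins. Medians over 15 clock genes ran from -0.04 for Fkbp5 to 0.04 for Tsc22d3. The value farthest from 0 was that of Sgk1 with Nfil3, a repressor of D-box genes (-0.19 on plate 1 and -0.33 on plate 2). Nr3c1 had values of 0.14 with Tef and 0.13 with Dbp, while Fkbp5 had -0.16 with Dbp and Errfi1 had 0.16 with Arntl, the gene of BMAL1. Among the 27 other induced targets in the table, the highest values were those of Zfp36 with Lox (0.34), Cebpd with Snai2 (0.31), Tsc22d3 with Tgm2 (0.30) and Sgk1 with Cebpb (0.28).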

How the data were processed

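The authors deposited raw counts per gene and cell for 768 FLASH-seq libraries (full-length single-cell RNA sequencing, 21 PCR cycles) from 2 plates. The submitters' processing notes name STAR 2.7.11a, SAMtools, bedtools, HTSeq and the builds GRCm39 and mm39, without settings; strand use and molecular identifiers are not given in the sources used here. The deposited sorting record holds fluorescence intensity per cell in arbitrary units. It gave the 8 gates, which were ordered by median Venus intensity within a plate.

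Kept cells had at least 1000 genes, a total no lower than 0.1 of their plate's median and a mitochondrial share of up to 25%. Each well held 1 sorted cell, and no doublet caller was run. Symbols matched 24902 features, and features without one held 1.07% of counts. Counts were summed per plate and bin (8 sums) and fitted with edgeR 4.0.16 (TMM, filterByExpr by bin, quasi-likelihood F-test, bins plus plate, contrast weights of 3 and 1 divided by 10, R 4.3.3), with a threshold of 0.05 on Benjamini-Hochberg adjusted p. The plate in the model pairs the bins, since each plate held every bin. The scripts were tested on simulated data. Alternatives used DESeq2 1.42.0, limma 3.58.1, other filters and scalings, single plates and left-out bins. Spearman correlations used SciPy 1.17.1 on log2(CPM + 1). Reference coordinates (GRCm38) were not joined to the counts, only symbols, exon lengths and overlaps.

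The 7 genes and all lists were chosen with earlier results of these data known. Besides the 7, genes were named where a list member passed the trend test or was among the 3 highest of its list, where they were among the 3 nearest of a member (at least 5 CPM and a count in 25% of cells on each plate), and clock genes for correlations. Other names were chosen after their values were seen.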

Additional observations from a re-analysis of the deposited data

Results flagged for a closer look

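Nr3c1 ran opposite ways on the 2 plates. Its trend was -0.083 log2 per bin on plate 1, the high H2B-iRFP sort, and 0.019 on plate 2, the low sort, a difference of -0.102. With 1 sample a side this difference was not tested, and neither plate alone nor both together passed the threshold of 0.05 by edgeR. For the other 6 genes the plates shared a sign.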

How the results depend on the processing

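The trends of Tsc22d3 and Errfi1 kept their sign and stayed short of the threshold under all 15 alternatives, 10 set out at the start and 5 added after seeing the data (each bin left out, and cells low in S and G2/M genes). Adjusted p-values below are edgeR's unless another tool is named. Sgk1 passed with library totals in place of TMM (0.142 log2 per bin, adjusted p = 0.0337), DESeq2 (0.127), no filter (0.123), thinned cells (0.129), mean CPM over cells with limma (0.133) and without bin 3 (0.117). Zfp36 no longer passed in an additive linear model (-0.179, adjusted p = 0.105) or in cells low in cell cycle genes (-0.106), and without bin 4 its sign turned (0.0096); on single plates it ranged from -0.238 to -0.116. Cebpd no longer passed without the replicate block (-0.167, adjusted p = 0.0745), without bin 1 (-0.173) or without bin 4 (-0.1001), and ranged from -0.178 to -0.152 on single plates. Leaving the block out of the model changed no other member's call. Nr3c1 turned positive without bin 4 (0.0024) and ran from -0.0828 (without replicate 2) to 0.0189 (without replicate 1) on single plates, and Fkbp5 negative in cells low in cell cycle genes (-0.0745). The test of any difference passed for Sgk1 with DESeq2 (adjusted p = 0.000169) and no filter (0.0155), and for Cebpd likewise (0.000824 and 0.0177). The count of genes called, 2843, became 1683 without the replicate block, 1858 in the linear model, 1186 in cells low in cell cycle genes, 1139 without bin 1 and 358 without bin 4, and 4 to 225 on single plates, where fewer sums were fitted. The log2 plate ratio of Sgk1 was -0.191 as a mean of cell values. Causes of these differences were not tested. Fkbp5 and Errfi1, at 1314 to 2124 counts per sum, had the least depth of the group.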

Other observations

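Correlations of the sort and quality measures of single cells with the group ran from -0.22 to 0.20 within Venus bins. Within Venus bins, the correlation with recorded Venus fluorescence lay between -0.07 and 0.08 for each of the 7 genes on each plate. With iRFP fluorescence Sgk1 was at -0.16 across the 383 cells of plate 1 and at -0.08 across the 379 cells of plate 2, and Cebpd was at 0.0063 and -0.11. The mitochondrial share went with Tsc22d3 at -0.22 and -0.13 and with Fkbp5 at -0.20 and -0.19. It went with Cebpd at 0.14 and 0.18, with Nr3c1 at 0.06 and 0.19 and with Zfp36 at 0.03 and 0.16. The number of genes detected went with Tsc22d3 at 0.18 and 0.13 and with Fkbp5 at 0.20 and 0.14. The part of these measures in the correlations among genes was not tested.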
